A study of Mus musculus with 8 samples.

Results

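Wnt signalling genes were followed in cholangiocytes, the epithelial cells that line the bile ducts, of the mouse liver. A set of 10 genes was chosen by name out of the 46603 rows of the count table: the ligands Wnt2, Wnt9b and Wnt7b, the R-spondins Rspo3 and Rspo1, the receptors Lgr4 and Lgr5, the ubiquitin ligases Znrf3 and Rnf43, and the pathway target Axin2. RNA-seq had been done on 8 libraries from 4 mice (JV602, JV621, JV624 and JV6314), each of which gave a library of EGFP+ liver label-retaining cells (LLRCs) and a library of EGFP- cells (non-LRCs). All 4 mice carried R26rtTA het/H2B-EGFP het, received doxycycline from postnatal day 0 to day 5, and had their liver cells sorted at 8 weeks of age. Untreated or wild-type animals were not analysed here, so the LLRCs could be compared with the non-LRCs of the same livers only. The rtTA activator is driven from the ubiquitous Rosa26 locus, and a cell that divides after the pulse dilutes its H2B-EGFP, so retained EGFP marks cells that divided little. The transgene is also known from the study to be switched on without doxycycline in blood-forming cells of the marrow, where EGFP does not report division. Both fractions were sorted as EpCAM+CD45- cells after bead depletion of leukocytes. The mouse stock was of mixed C57BL/6 and CBA background, and the sex of these 4 mice is not given in the sources used here.

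Wnt proteins bind Frizzled receptors with LRP5 or LRP6 and protect beta-catenin from its destruction complex, after which beta-catenin acts with TCF/LEF factors on target genes such as Axin2. The membrane ubiquitin ligases Znrf3 and Rnf43 remove Frizzled from the cell surface, and R-spondins, bound to LGR receptors, clear these ligases and so raise the response to a Wnt signal. In the liver, endothelial cells of the central veins are a known source of Wnt2, Wnt9b and Rspo3, which maintain the gene programme of the hepatocytes around the central vein, whereas Lgr4 is made by epithelial cells across the lobule and Lgr5 mainly by pericentral hepatocytes.

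The promoters of Wnt2 and Wnt9b are shown because both ligands were lower in the LLRC library of every mouse, as described below for each gene. RefSeq promoters on GRCm38.p6, each the 250 bases before a transcript start, were at hand for 6 of the 10 genes (Wnt2, Wnt9b, Rspo1, Lgr4, Rnf43 and Axin2). For Wnt2 the stretch printed is the 110 bases of that window that lie before the start of the gene in the GENCODE annotation, chr6:18030586-18030695 on the minus strand, and for Wnt9b it is the whole window, chr11:103749822-103750071 on the minus strand. Capitals mark a match to a GATA motif.
Wnt2: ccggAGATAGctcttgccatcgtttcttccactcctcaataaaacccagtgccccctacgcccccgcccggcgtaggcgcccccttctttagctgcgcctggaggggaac
Wnt9b: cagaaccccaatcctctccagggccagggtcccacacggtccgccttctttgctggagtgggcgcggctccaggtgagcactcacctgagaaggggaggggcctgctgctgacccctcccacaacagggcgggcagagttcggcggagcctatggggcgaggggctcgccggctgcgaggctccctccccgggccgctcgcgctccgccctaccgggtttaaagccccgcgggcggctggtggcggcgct
Both strands of the 250 bases were searched for 3 short motifs: the TCF/LEF core CTTTGA, the GATA motif in its forms AGATAA or AGATAG as well as TGATAA or TGATAG, and the TATA box, spelled as TATAAA. Of 32536 mouse promoters in the same table, 13.9% held the TCF/LEF letters, 26.5% a GATA form and 12.3% the TATA box. The Wnt2 window held AGATAG at 18030686 to 18030691 and, on the other strand, TGATAA (written TTATCA along the gene) at 18030449 to 18030454. The latter match lies past the GENCODE start, inside the annotated gene, and so is not in the stretch printed. The Wnt9b window, with 72.0% G or C, held none of these letters. A further 3 GATA matches lay before the second listed start of Rnf43, in a window (chr11:87699647-87699896) that lies inside the gene as GENCODE annotates it. The windows of Rspo1, Lgr4 and Axin2 held no match to any of these motifs. A match is a run of letters and not a shown binding site.

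Each library held 7860021 to 9851819 counted reads among the LLRCs and 4670132 to 8056103 among the non-LRCs. Levels are given as reads and as CPM, the reads relative to the TMM-scaled library total, where the limit that a count of 0 allows, 3 counts, corresponds to 0.291 to 0.441 CPM in the LLRC libraries and 0.376 to 0.626 CPM in the non-LRC libraries. Intervals of this kind cover counting error only. Cholangiocyte markers were abundant in both fractions, with 11 of 11 above the expression filter and summed levels of 114438 to 221578 CPM in LLRCs and 66163 to 162229 CPM in non-LRCs. Most of these sums was Spp1, and the other 10 markers summed to 2503 to 2933 CPM and 1915 to 3082 CPM. Leukocyte and Kupffer cell markers summed to 1.45 to 6.55 CPM in LLRCs and 0.626 to 25.6 CPM in non-LRCs, with 4 of the 8 genes (Clec4f, Adgre1, C1qa and C1qb) at 0 in all LLRC libraries. The list did not move one way. Ptprc, which encodes the CD45 that the sort selected against, was the only gene of it to pass the filter and had 5, 34, 14 and 59 reads in LLRCs against 0, 0, 0 and 7 in non-LRCs (log2 fold change 3.27, SE 1.42, adjusted p = 0.957). Pancreatic acinar markers summed to 1.89 to 7.46 CPM in LLRCs and 5.39 to 22.9 CPM in 3 non-LRC libraries, but to 1013 CPM in the non-LRC library of JV6314.

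The LLRC libraries had lower levels of Wnt2, Wnt9b and Rspo3 in 4 of 4 mice, with no overlap between the groups. The receptor Lgr4 and the ligase Znrf3 were abundant in both fractions. Of the 10 genes, 7 passed the expression filter, which needed 4 libraries past 1.26 CPM before TMM scaling, while Lgr5, Axin2 and Wnt7b were too low to be tested. In the edgeR quasi-likelihood test with Benjamini-Hochberg adjustment none of the 7 had an adjusted p below 0.05, and neither did any of the 13605 genes tested (0% called lower). At an unadjusted p below 0.05 in this test, 3 of the 10 genes were lower in LLRCs (Wnt2, Wnt9b and Rspo3) and 1 was higher (Znrf3), where 3.56% of all genes tested were lower and 1.6% higher. With mouse as a replicate block the unadjusted p of Znrf3 was 0.0512, and 3 members stayed below 0.05. Wnt2, Wnt9b and Rspo3 passed the filter through their 4 non-LRC libraries, as 2, 0 and 3 of their LLRC libraries passed it, so the counts of members given here are descriptions. Other tests on the same counts did call members. The edgeR exact test called Wnt2 and Rspo3 lower with the filter and without it, and Wnt9b with the filter only, where 0.904% of genes were called lower with the filter and 0.323% without. The DESeq2 Wald test called Wnt2 and Rspo3 lower, and 1.26% of all genes. Every LLRC library lay below every non-LRC library for 3 of the 10 members and for 1.91% of genes tested, and above for none of the members and 2.15% of genes. The LLRC library was the lower one in 4 of 4 mice for 3 members and for 5.53% of genes. The plot of the 10 genes by mouse shows these pairs of libraries side by side.

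**Figure D1:**
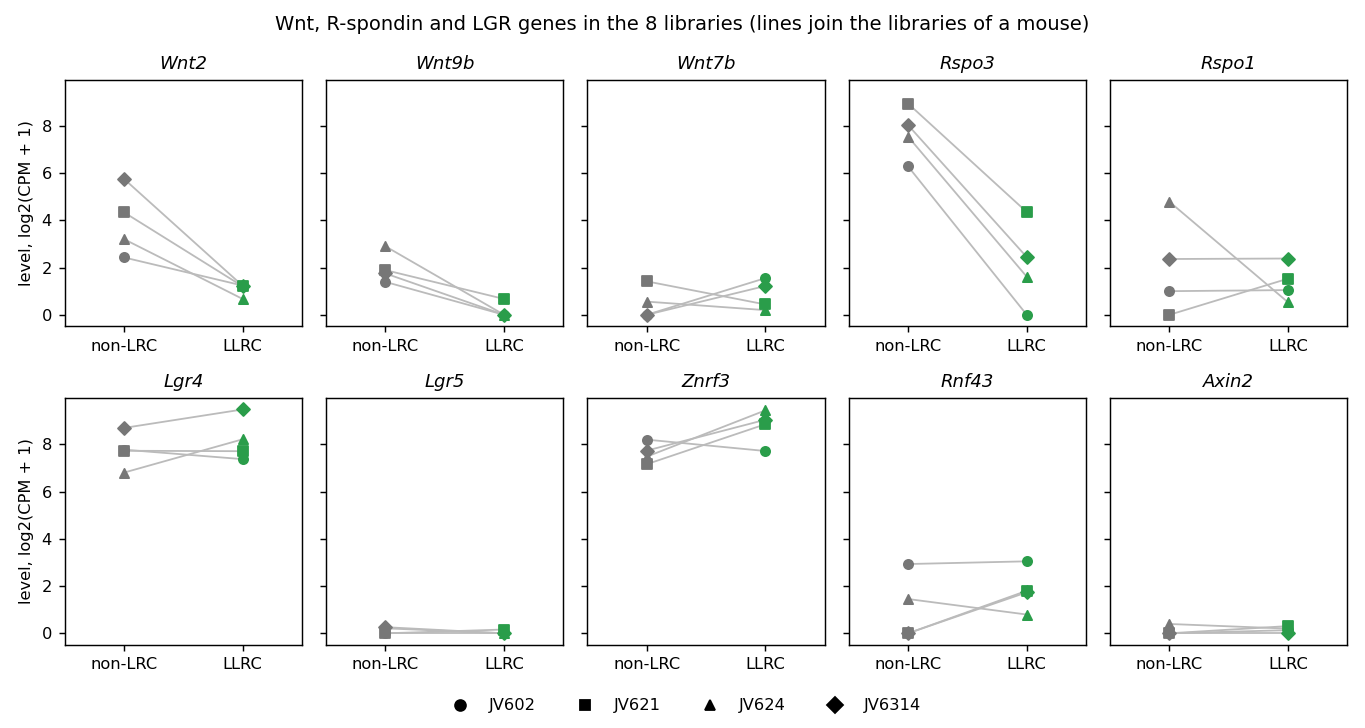
Level of each of the 10 genes as log2(CPM + 1) in the non-LRC (grey) and LLRC (green) library of each mouse, with a line joining the libraries of a mouse and a marker shape for each mouse. All 4 lines fall for Wnt2, Wnt9b and Rspo3, whereas the lines of Lgr4, Znrf3, Rspo1, Rnf43 and Wnt7b run in both directions and Lgr5 and Axin2 lie near 0.

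Wnt2 encodes a canonical Wnt ligand that liver endothelial cells are known to secrete, and its gene lies on chromosome 6 (GRCm38, 17988940 to 18030585, minus strand). In LLRCs it had 14, 11, 4 and 12 reads in JV602, JV621, JV624 and JV6314, which are 1.36, 1.30, 0.588 and 1.33 CPM. In non-LRCs of the same mice it had 35, 92, 52 and 268 reads, which are 4.38, 19.2, 8.21 and 52.9 CPM. The LLRC libraries were thus uniformly low, and the non-LRC libraries were all higher but spread widely, with JV6314, the library high in acinar markers, at the top. The mean level was 1.14 ± 0.372 CPM in LLRCs and 21.2 ± 22.1 CPM in non-LRCs (SD, n = 4 each), and the non-LRC mean was 10.6 CPM without JV6314. The edgeR quasi-likelihood log2 fold change, LLRC over non-LRC, was -4.18 (SE 0.85, unadjusted p = 0.000757, adjusted p = 0.152). The adjusted p was 0.0011 in the edgeR exact test and 3.13e-05 with DESeq2, and over 18 alternative fits it ranged from 3.13e-05 to 0.523. Within mice the difference in log2(CPM + 1) was -1.19, -3.13, -2.54 and -4.53 in the same order, with a mean of -2.85 ± 1.38 (SD, n = 4). An exact two-sided permutation test of the 8 libraries, which ignores their pairing by mouse, gave p = 0.029, the smallest that 4 against 4 allow.

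Wnt9b, the other Wnt ligand known from central vein endothelium, lies on chromosome 11 (103727364 to 103749821, minus strand). Among LLRCs it was detected in JV621 with 5 reads (0.591 CPM) and had 0 reads in JV602, JV624 and JV6314, which allows up to 0.291, 0.441 and 0.333 CPM there. Non-LRCs had 13, 13, 41 and 12 reads, or 1.63, 2.71, 6.47 and 2.37 CPM. Reads were few in either group, but each non-LRC library exceeded each LLRC library. The means were 0.148 ± 0.296 and 3.30 ± 2.17 CPM (SD, n = 4 each), and the LLRC mean was 0 without JV621 and the non-LRC mean 2.24 CPM without JV624. Its fitted log2 fold change was -4.34 (SE 1.25, unadjusted p = 0.00685, adjusted p = 0.507), a size that depends on the small prior count that the fit adds. It was -7.57 without the LLRC library of JV621, which leaves 0 reads in LLRCs, and otherwise lay between -5.14 and -3.78 over the alternative fits. Because Wnt9b passed the filter by its non-LRC reads alone, the adjusted p of the exact test is given with the filter, 0.0336, and without it, 0.273, and nothing is read from the former. The within-mouse differences in log2(CPM + 1) averaged -1.82 ± 0.76 (SD, n = 4). Ignoring the pairing, the exact permutation p was 0.029.

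Wnt7b, a ligand often made by epithelial cells (chromosome 15, 85535437 to 85582473, minus strand), had 20, 3, 1 and 12 reads in LLRCs and 0, 8, 3 and 0 in non-LRCs. The groups overlapped, with 2 mice higher in LLRCs and 2 lower. The means were 0.943 ± 0.841 and 0.536 ± 0.789 CPM (SD, n = 4 each), and the exact permutation p was 0.400. The non-LRC mean was 0.158 CPM without JV621, and without JV602 the LLRC mean, at 0.611 CPM, was below the non-LRC mean of 0.715 CPM. Antisense to Wnt7b, AU022754 covers 6.61% of its exon length, and counting without strand cannot separate reads of the pair.

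Rspo3 encodes the R-spondin that central vein endothelium is known to make, on chromosome 10 (29452416 to 29535867, minus strand). Its log2 fold change was the most negative of the 7 genes tested, within its error of that of Wnt9b. LLRCs had 0, 164, 14 and 40 reads in JV602, JV621, JV624 and JV6314, or 0, 19.4, 2.06 and 4.44 CPM. Non-LRCs had 615, 2356, 1177 and 1322 reads, or 77.0, 492.0, 185.8 and 260.9 CPM. JV621 was the highest mouse in both fractions and JV602 the lowest in both, so mice kept their order while each pair stood far apart. The means were 6.47 ± 8.80 and 253.9 ± 175.7 CPM (SD, n = 4 each), and without JV621 they were 2.17 and 174.6 CPM. The log2 fold change was -5.29 (SE 1.31, unadjusted p = 0.00281, adjusted p = 0.321). The exact test gave an adjusted p of 0.012 and DESeq2 one of 0.000613, and the 18 alternative fits ranged from 0.000613 to 0.841. Within mice the difference in log2(CPM + 1) was -6.29, -4.60, -5.93 and -5.59, with a mean of -5.60 ± 0.73 (SD, n = 4). The exact permutation test, which ignores the pairing, gave p = 0.029. Gm48159, on the opposite strand, covers 13.1% of the exon length of Rspo3.

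Rspo1, another R-spondin, is known from mesenchymal and mesothelial cells and lies on chromosome 4 (124986430 to 125009099, plus strand). It had 11, 16, 3 and 38 reads in LLRCs (1.07, 1.89, 0.441 and 4.22 CPM) and 8, 0, 169 and 21 in non-LRCs (1.00, 0, 26.7 and 4.14 CPM). The non-LRC library of JV624 stood above all others, and elsewhere the groups covered the same range. The means were 1.90 ± 1.65 and 7.96 ± 12.6 CPM (SD, n = 4 each), and the non-LRC mean was 1.72 CPM without JV624. The log2 fold change of -2.05 (SE 1.39, adjusted p = 0.9999) became 0.16 when that library was left out, and the exact permutation p was 0.686.

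Lgr4, the R-spondin receptor of most liver epithelium, lies on chromosome 2 (109917647 to 110014257, plus strand). LLRCs had 164.9, 208.5, 296.5 and 712.7 CPM and non-LRCs 218.0, 211.1, 110.8 and 413.8 CPM, from 1701 to 6419 and from 702 to 2097 reads. JV6314 was the highest in both fractions, and the LLRC library was the higher one in JV624 and JV6314 only. In the fit the log2 fold change was 0.54 (SE 0.54, adjusted p = 0.9999), and it was -0.085 without the LLRC library of JV6314. The exact permutation p was 0.486.

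Lgr5, a receptor that marks stem cells of several epithelia (chromosome 10, 115450311 to 115587780, minus strand), had a single read among the LLRC libraries, in JV621, and single reads in the non-LRC libraries of JV624 and JV6314. All other libraries were at 0, so no difference was detectable at this depth.

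Znrf3, a ligase that removes Frizzled receptors, was the member with the most reads in LLRCs, and it lies on chromosome 11 (5276324 to 5444847, minus strand). LLRCs had 2162, 3902, 4718 and 4742 reads, or 209.6, 461.5, 693.9 and 526.5 CPM. Non-LRCs had 2341, 680, 1124 and 1075 reads, or 293.2, 142.0, 177.4 and 212.1 CPM. The level was higher in the LLRC library of JV621, JV624 and JV6314, and lower in that of JV602, where the groups met. The means were 472.9 ± 201.0 and 206.2 ± 64.7 CPM (SD, n = 4 each). The log2 fold change was 1.20 (SE 0.39, unadjusted p = 0.0136, adjusted p = 0.682), and it ran from 0.96 to 1.45 over the 18 alternative fits, with adjusted p from 0.219 to 1. With mouse as a replicate block it was 1.16 (SE 0.47, unadjusted p = 0.0512). The exact permutation p of the 8 libraries was 0.0857.

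Rnf43, the paralogue of Znrf3 with the same role (chromosome 11, 87662722 to 87735539, plus strand), was far lower. It had 75, 21, 5 and 21 reads in LLRCs and 53, 0, 11 and 0 in non-LRCs, so that JV602 was the highest mouse in both fractions. The non-LRC libraries at 0, JV621 and JV6314, were also those with the fewest genes detected. The means were 3.21 ± 2.82 and 2.09 ± 3.14 CPM (SD, n = 4 each), and without JV602 they were 1.85 and 0.579 CPM. The fitted log2 fold change was 0.59 (SE 1.33, adjusted p = 0.9999), and it was -0.19 without the LLRC library of JV602.

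Axin2, a scaffold of the destruction complex and a common target of the pathway (chromosome 11, 108920349 to 108950783, plus strand), had 1, 2, 1 and 0 reads in LLRCs and 0, 0, 2 and 0 in non-LRCs. It was at or under 3 counts in every library, so no fold is read from it. On the other strand, Gm11670 covers 3.80% of its exon length.

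Levels of different genes were compared as CPM per kilobase of exon. In non-LRCs the order of mean levels was Rspo3 (82.2 ± 56.9), Lgr4 (40.5 ± 21.5), Znrf3 (26.1 ± 8.19), Wnt2 (9.39 ± 9.78), Rspo1 (4.10 ± 6.50), Wnt9b (0.729 ± 0.479), Rnf43 (0.319 ± 0.478), Wnt7b (0.109 ± 0.161), Axin2 (0.0143) and Lgr5 (0.00865). Each neighbouring pair in this order overlapped within 1 SD. In LLRCs the order was Znrf3 (59.9 ± 25.5), Lgr4 (58.7 ± 42.6), Rspo3 (2.10 ± 2.85), Rspo1 (0.983 ± 0.853), Wnt2 (0.508 ± 0.165), Rnf43 (0.489 ± 0.430), Wnt7b (0.193 ± 0.172), Wnt9b (0.0327), Axin2 (0.0218) and Lgr5 (0.00288), all as mean and SD of 4 libraries in CPM per kilobase. Here the step from Lgr4 down to Rspo3 was larger than 1 SD on either side, and the other neighbours overlapped. By mean, Rspo3 thus stood first among the 10 genes in non-LRCs, while Znrf3 and Lgr4 stood first in LLRCs. In the non-LRC library of JV602, however, Rspo3 was at 24.9, below Znrf3 and Lgr4 at 37.1 each.

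**Figure D2:**
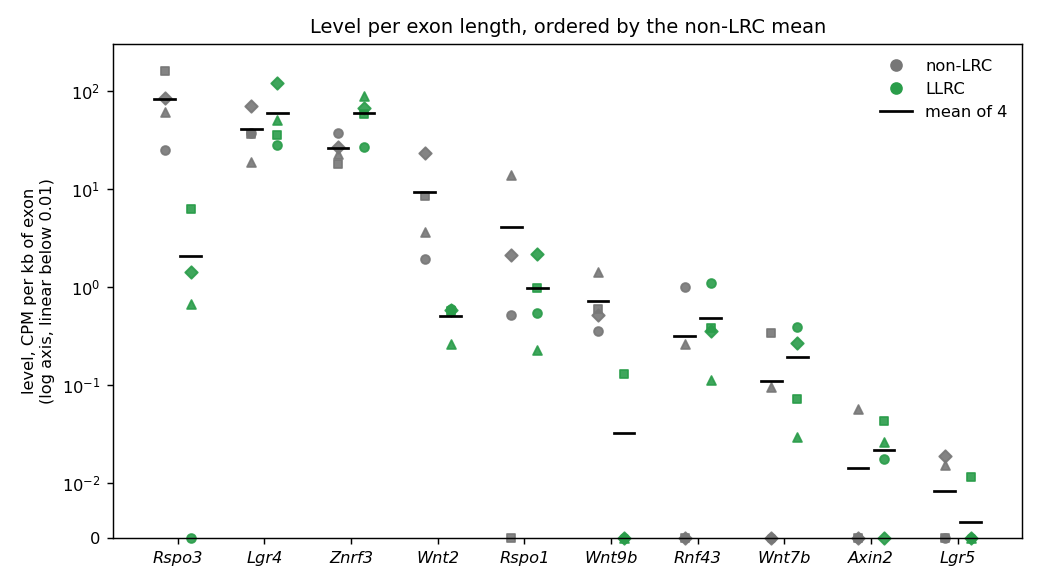
Level of each gene in CPM per kilobase of exon (log axis, linear below 0.01) in the non-LRC (grey) and LLRC (green) libraries, with marker shapes for the mice as in the plot by mouse, bars at the mean of 4 libraries and genes ordered by the non-LRC mean. Rspo3 has the highest mean in non-LRCs, at 82.2, and a mean of 2.10 in LLRCs, while Lgr4 and Znrf3 stay above 10 in every library.

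Endothelial markers moved together with Wnt2, Wnt9b and Rspo3. The 10 pan-endothelial markers (Pecam1, Cdh5, Tek, Kdr, Emcn, Eng, Egfl7, Flt1, Cldn5 and Esam) summed to 26.9 to 55.4 CPM in LLRCs and 182.8 to 646.9 CPM in non-LRCs. For 10 of the 10 every LLRC library lay below every non-LRC library, as for 1.91% of all genes tested, with a median log2 fold change of -3.71, beside -0.01 over all genes tested. The study had already named Pecam1, Cdh5, Tek, Eng, Flt1, Cldn5 and Esam, and Cdh13 of the central vein list, as lower in LLRCs from these libraries. The separation of these lists is therefore a description and no independent evidence. The 8 sinusoidal endothelial markers summed to 59.7 to 146.0 CPM and 298.1 to 1851 CPM, with 7 of the 8 not overlapping. The 6 central vein endothelial markers summed to 15.3 to 47.9 CPM and 198.6 to 796.2 CPM, with 4 of the 6 not overlapping. The LLRC libraries held reads of each of the 3 lists too, although Selp was at 0 in JV602 and JV6314 and Lyve1 in JV602. In sorted bulk samples, fewer cells of a type and less RNA per cell cannot be told apart.

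The reads of each ligand were therefore set against the pan-endothelial marker reads of the same library, a comparison that was added after the data had been seen. Per 100 pan-endothelial marker reads, Rspo3 had 0, 35.0, 5.45 and 11.7 reads in LLRCs, mice in the same order as before. In non-LRCs it had 42.1, 76.0, 40.9 and 45.0. The LLRC ratio was the lower one in 4 of 4 mice and the groups did not overlap, although JV621 came near the lowest non-LRC library. The means were 13.1 ± 15.4 and 51.0 ± 16.8 (SD, n = 4 each), and the LLRC mean was 5.73 without JV621. The exact permutation test gave p = 0.029, which was 0.343 after Benjamini-Hochberg adjustment over the 12 ratios compared. At 4 against 4 the adjusted p could fall below 0.05 only if most of the 12 ratios had this smallest p. Nothing is therefore read from the adjusted value. Against sinusoidal markers the mean ratio of Rspo3 was 8.12 in LLRCs and 32.5 in non-LRCs (exact permutation p = 0.0857), and against central vein markers it was 15.5 and 53.0 (p = 0.0571), with an adjusted p of 0.343 for either. In both of these ratios the LLRC library of JV621, at 27.6 and 40.5, lay above the lowest non-LRC library, and without it the LLRC means were 1.62 and 7.19.

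For Wnt2 the same ratio overlapped between the groups. It was 5.05, 2.35, 1.56 and 3.52 reads per 100 pan-endothelial marker reads in LLRCs and 2.40, 2.97, 1.81 and 9.12 in non-LRCs, with means of 3.12 ± 1.52 and 4.07 ± 3.40 (SD, n = 4 each). The exact permutation p was 0.743, and without JV6314 the non-LRC mean was 2.39 and the LLRC mean 2.99. Against central vein markers the mean ratio of Wnt2 was 4.49 in LLRCs and 4.20 in non-LRCs (2.51 without JV6314), and against sinusoidal markers it was 1.39 and 2.01 (exact permutation p = 0.914 and 0.257). For Wnt9b the ratio was 0 in 3 LLRC libraries and 1.07 in JV621, and ran from 0.409 to 1.42 in non-LRCs (exact permutation p = 0.2). With 4 libraries a group these ratios do not show that Wnt2 or Wnt9b followed the endothelial markers exactly, nor was a difference between Rspo3 and Wnt2 in this respect tested.

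**Figure D3:**
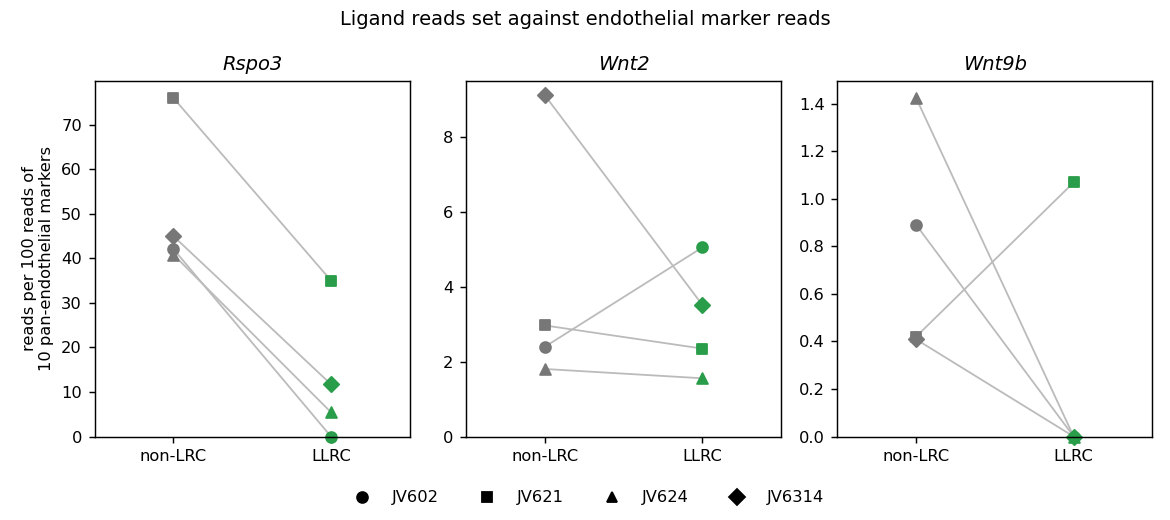
Reads of Rspo3, Wnt2 and Wnt9b per 100 reads of the 10 pan-endothelial markers in the non-LRC (grey) and LLRC (green) library of each mouse, each panel with its own linear axis from 0 and a marker shape for each mouse. All 4 Rspo3 lines fall, from 40.9 or more to 35.0 or less, whereas the Wnt2 values of the groups overlap.

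Mesothelial markers are given beside Rspo1. Of the 5 in the list, Gpm6a was high everywhere, and the other 4 (Msln, Upk3b, Lrrn4 and Wt1) summed to 28.7 to 82.4 CPM in LLRCs and 21.9 to 515.8 CPM in non-LRCs, the highest being the non-LRC library of JV624. With Gpm6a the sums were 606.7 to 1215 CPM and 921.1 to 2637 CPM, and the non-LRC library of JV621, with 0 reads of Rspo1, then had 1941 CPM, second to JV624. Leaving out Gpm6a was chosen after the data had been seen. Per 100 reads of the 4 markers, Rspo1 had 2.91, 2.30, 1.54 and 6.08 reads in LLRCs and 2.58, 0, 5.17 and 2.55 in non-LRCs. The means of 3.21 ± 2.00 and 2.58 ± 2.11 (SD, n = 4 each) did not differ beyond this spread (exact permutation p = 0.686). Against the whole list of 5 the order of the means turned, with 0.189 in LLRCs and 0.359 in non-LRCs (exact permutation p = 0.686). That turn rested on JV624, without which the means were 0.236 in LLRCs and 0.141 in non-LRCs. The 10 stellate cell and fibroblast markers summed to 2476 to 9953 CPM in LLRCs and 3534 to 9315 CPM in non-LRCs, with means of 6844 and 5927 CPM, most of it from Rgs5, which was high in every library. Without Rgs5, left out after the data had been seen, the sums were 279.5 to 922.6 CPM and 718.6 to 2964 CPM, so the order of the groups depended on that gene. The Rspo1 ratio to the list without Rgs5 gave an exact permutation p of 0.943. What part other cell types had in the level of Rspo1 was not tested.

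**Figure D4:**
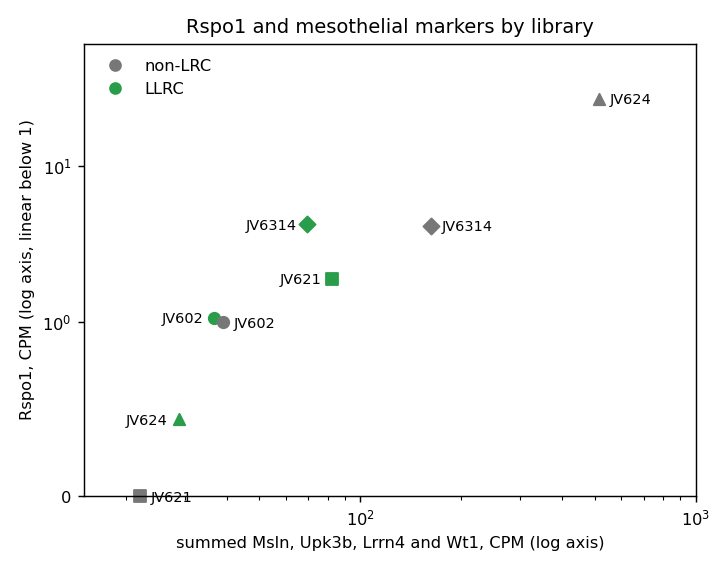
Rspo1 in CPM (log axis, linear below 1) against the summed level of Msln, Upk3b, Lrrn4 and Wt1 in CPM (log axis) in each of the 8 libraries, labelled by mouse and coloured by group. The non-LRC library of JV624, at 515.8 CPM of marker sum and 26.7 CPM of Rspo1, stands apart from the other 7, and the non-LRC library of JV621 has the lowest sum and 0 reads of Rspo1.

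The rest of the pathway was read from 11 lists of 96 genes in all, of which 46 passed the filter and 9 had no reads in any library. None of the 46 had an adjusted p below 0.05 in the quasi-likelihood test. At an unadjusted p below 0.05, 7 were lower in LLRCs and 1 was higher, beside 3.56% and 1.6% of all 13605 genes tested. With mouse as a replicate block 6 of these 46 were below 0.05, beside 569 of the 13605 genes. The median log2 fold change of the 46 was 0.02. In the plot by list, the values below -2 were those of Wnt2, Wnt9b, Rspo3, Rspo1, the receptor Fzd1 and the 4 pericentral hepatocyte genes tested.

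Among the 19 Wnt ligands, 4 passed the filter, and 4 (Wnt1, Wnt3, Wnt3a and Wnt10b) had no reads. Wnt4 had 43, 42, 37 and 73 reads in LLRCs and 62, 6, 8 and 30 in non-LRCs, with a log2 fold change of 0.48 (SE 0.70). Wnt5a, a mostly non-canonical ligand, had 73, 61, 86 and 13 reads in LLRCs, while its non-LRC reads came from JV602 alone, with 107. Its log2 fold change was 1.05 (SE 1.64), so neither Wnt4 nor Wnt5a was separated between the groups. Of the other R-spondins, Rspo4 had no reads, and Rspo2 had 38 reads, all in the LLRC library of JV624. Lgr6, the remaining LGR receptor, averaged 2.99 ± 3.43 CPM in LLRCs and 2.81 ± 3.17 CPM in non-LRCs (SD, n = 4 each).

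Wls, which carries Wnt proteins to the cell surface, averaged 465.6 ± 42.1 CPM in LLRCs and 462.6 ± 189.5 CPM in non-LRCs, and Porcn, which attaches their lipid, averaged 3.55 ± 1.60 and 2.34 ± 2.02 CPM (SD, n = 4 each). Of 16 Wnt receptors and co-receptors 10 were tested, with a median log2 fold change of 0.04. Lrp6 had a log2 fold change of 0.03 (SE 0.41) and Ror1 one of 0.43 (SE 0.59). Fzd1 had the lowest value, -2.42 (SE 1.48), from 950 reads in the non-LRC library of JV621 and 0 to 93 in the other 3 non-LRC libraries. Fzd6 (-1.10, SE 0.82) and Fzd4 (-0.70, SE 0.61) overlapped between the groups as well.

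Secreted and membrane antagonists were sparse, with 3 of 16 tested. Sfrp1, which binds Wnt proteins, had a log2 fold change of -1.03 (SE 1.00), Dkk3 one of -0.89 (SE 1.07) and Kremen1 one of -0.43 (SE 1.41). In the destruction complex and cytoplasmic relay 9 of 13 genes were tested, with a median log2 fold change of 0.24. Ctnnb1, beta-catenin itself, averaged 631.9 ± 96.4 CPM in LLRCs and 672.3 ± 445.2 CPM in non-LRCs, and the kinase Gsk3b at 1049 ± 458 and 682.1 ± 190.9 CPM (SD, n = 4 each). Amer1 had a log2 fold change of 0.64 (SE 0.74) and Btrc one of 0.39 (SE 0.49). The genes that relay the signal inside the cell were thus read in both fractions, and none of them passed the test in either direction.

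Among TCF/LEF factors and co-activators 5 of 8 were tested. Tcf7l2, the main TCF factor of these libraries by level, averaged 202.2 ± 14.1 CPM in LLRCs and 185.4 ± 51.8 CPM in non-LRCs (SD, n = 4 each). The co-activator Bcl9 had a log2 fold change of 0.95 (SE 0.91, unadjusted p = 0.325). Tcf7l1 (-0.34, SE 0.55), Pygo1 (-0.10, SE 1.14) and Pygo2 (0.47, SE 0.74) were within their errors of 0. Of 12 common target genes 5 were tested, and beside Znrf3 and Rnf43 they included Ccnd1, a cyclin, at 89.5 ± 26.8 and 85.4 ± 25.9 CPM, and Tnfrsf19 at 61.5 ± 19.7 and 50.4 ± 34.3 CPM (SD, n = 4 each).

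The pericentral hepatocyte targets of Wnt signalling were the other list with low values, and 4 of its 8 genes were tested. Glul, glutamine synthetase, had 186, 114, 157 and 237 reads in LLRCs and 233, 209, 689 and 734 in non-LRCs, with a log2 fold change of -2.01 (SE 0.53, unadjusted p = 0.00424, adjusted p = 0.378). Cyp2e1, a cytochrome P450, had one of -2.69 (SE 0.72), Oat, ornithine aminotransferase, one of -2.41 (SE 0.74), and Cyp1a2, named after its values were seen, one of -3.57 (SE 1.42). The DESeq2 Wald test called Glul and Cyp2e1 lower, where it called 1.26% of all genes lower. With the edgeR exact test Cyp2e1 was called lower, as were 0.904% of all genes. The non-LRC libraries of JV624 and JV6314 were the high ones for all 4 genes. General hepatocyte markers summed highest in the same libraries, with 7652 and 6803 CPM there against 3079 and 2173 CPM in the non-LRCs of JV602 and JV621 and 3049 to 3480 CPM in LLRCs. Single markers of that list differed, as Apob, with 36 reads, had its lowest CPM of all 8 libraries in the non-LRCs of JV6314. Their part in the result for these 4 genes was not tested.

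**Figure D5:**
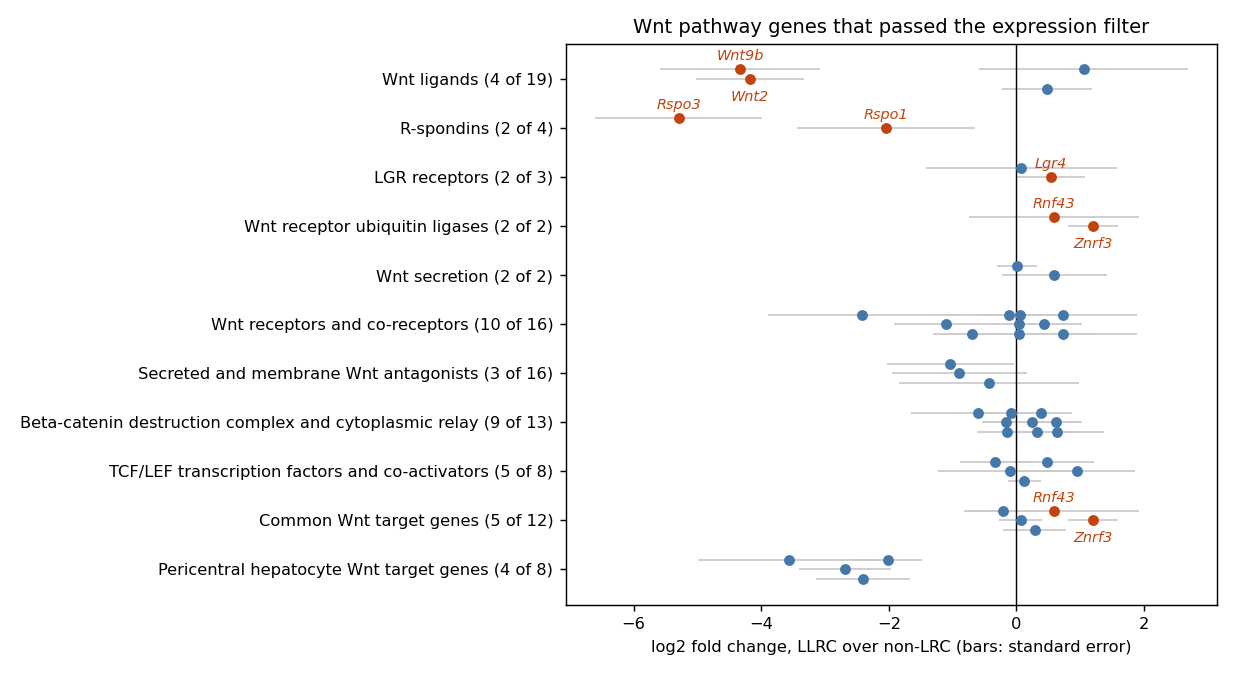
Log2 fold change, LLRC over non-LRC, with its standard error for each pathway gene that passed the filter, by list, with the number tested of the number listed in parentheses and members of the set of 10 in orange. Wnt9b, Wnt2 and Rspo3 lie between -5.29 and -4.18, the pericentral hepatocyte genes between -3.57 and -2.01, and the receptor Fzd1, at -2.42, lies among the latter.

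For each member tested, the genes most alike in pattern were those whose log2(CPM + 1), centred on its mean over the 8 libraries, had the smallest root mean square difference from that of the member. For Wnt2 these were Lrrc32 (0.333), Slc43a3 (0.497) and Fndc1 (0.499), and for Wnt9b Slc27a2 (0.338), Gsdmd (0.384) and Tmem88 (0.403). For Rspo3 they were Cdh13 (0.887), a cadherin in the central vein list, Tmem47 (0.961) and Entpd1 (1.05). For Rspo1 they were the glypican gene Gpc3 (0.352), C8g (0.426) and the mesothelial marker Upk3b (0.429). Znrf3 was nearest to B4galt6 (0.245), Chd8 (0.254) and Gnl3l (0.274), Lgr4 to Gm14567 (0.275), Capsl (0.278) and Pdcd4 (0.294), and Rnf43 to Zbtb49 (0.226), Ankrd13d (0.291) and Igsf8 (0.306). The members' own root mean square spread was 1.69 for Wnt2, 1.01 for Wnt9b, 3.09 for Rspo3, 1.40 for Rspo1, 0.77 for Znrf3 and Lgr4 each and 1.10 for Rnf43. The 8 libraries share their mice in pairs, and these differences describe likeness of pattern only.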

How the data were processed

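RNA-seq was done on sorted cells from 4 mice. The authors deposited 1 table of raw read counts per gene. Per the labels and the study's methods, reads were mapped as a service at EMBL (the aligner is not given in the sources used here) and assigned to exons by HTSeq 0.5.3p9 (union mode, strand ignored) on GRCm38.p4 (Ensembl). A deposited table of the authors' edgeR 3.2.4 comparison holds their fold changes and p-values and was not used.

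Of 46603 rows, 598 had no symbol. Coordinates and exon lengths come from GENCODE on GRCm38. Counts were tested with edgeR 4.0.16 (filterByExpr, TMM, quasi-likelihood test, group as the only term) on R 4.3.3, with Benjamini-Hochberg adjustment over 13605 genes and a threshold of 0.05. SE values were worked back from this test, as the absolute log2 fold change over the square root of its F statistic. They are approximate. Exact two-sided permutation tests took all libraries as unpaired, so their p-values are not tests of the within-mouse differences. For gene levels they used log2(CPM + 1), which understates changes of low genes. For ratios to marker reads they used the ratios themselves, without a log. The code was tested on simulated counts. DESeq2 1.42.0, limma 3.58.1 with voom, other filters and scalings, and leaving out each library were alternatives, as was a fit with mouse as a replicate block. The libraries are paired because both fractions come from the same animal, and their deviations, after subtracting each group mean, had correlations of 0.0961, 0.0737, 0.00334 and 0.171 over 13605 genes in JV602, JV621, JV624 and JV6314. Each mouse gave 1 library a group, and these 4 mice are the only replicates. In the fit without the block, p-values measure the spread between libraries of a group and ignore the pairing. The fit with mouse as a replicate block uses it.

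The genes named are all 10 members, from each pathway list the 3 genes tested with the smallest p and the 2 with the highest mean CPM, and for each member the 3 genes most alike. Markers are named from the cell type lists, and pathway genes with no reads, Rspo2 and Cyp1a2 were named outside this rule, after their values were seen. Members, lists and motifs were chosen with earlier results of these data known. The study itself had picked Wnt2, Rspo3 and several of the endothelial markers from these libraries, so their direction here is no independent evidence.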

Additional observations from a re-analysis of the deposited data

Results flagged for a closer look

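In 5 of the 20 groups of 4 libraries (10 genes in 2 fractions), a library lay farther from the others than Dixon's 95% limit allows. Chance gives this in about 1 in 20 groups, a rate that does not hold for the 3 of the 5 where the other libraries were at 0, since any read there exceeds the limit. Wnt2 in LLRCs was at 0.588 CPM in JV624, from 4 reads, against 1.30 to 1.36 CPM in the other 3. Wnt9b in LLRCs was at 0.591 CPM in JV621, from 5 reads, and at 0 in the other 3. Rspo1 in non-LRCs was at 26.7 CPM in JV624, from 169 reads, against 0 to 4.14 CPM in the other 3, and this library also had the highest sum of Msln, Upk3b, Lrrn4 and Wt1, at 515.8 CPM. Lgr5 in LLRCs was at 0.118 CPM in JV621, from a single read, and Axin2 in non-LRCs was at 0.316 CPM in JV624, from 2 reads, and both were at 0 in the other 3 libraries.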

How the results depend on the processing

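The fit without the block called 0 of 13605 genes, with 702 at an unadjusted p below 0.05. With mouse as a replicate block it again called 0 genes, 0 members and 0 pathway genes, with 569 below 0.05 unadjusted, so the block changed no adjusted call. Without adjustment it lowered the counts below 0.05 from 4 to 3 members, Znrf3 being lost, and from 8 to 6 pathway genes. DESeq2 called 221 genes (172 lower), 2 members and 4 pathway genes, and the edgeR exact test 154 genes (123 lower), 3 members and 4 pathway genes. Without a filter on low counts the quasi-likelihood test called 11 genes, none of them members. An exact test without that filter, chosen after seeing the data, called 115 genes, 2 members and 2 pathway genes. Leaving out each library in turn gave 0 to 6 genes called, the 6 without the non-LRC library of JV602, and 0 members. The direction of Wnt2, Wnt9b, Rspo3 and Znrf3 was the same in all 18 alternatives. Leaving out a library reversed 3 log2 fold changes: that of Rspo1 ran from -2.78 to 0.16 (positive without the non-LRC library of JV624), that of Lgr4 from -0.085 to 0.95 (negative without the LLRC library of JV6314) and that of Rnf43 from -0.19 to 2.37 (negative without the LLRC library of JV602). Leaving out a mouse, the within-mouse difference ran from -1.40 to 0.53 for Rspo1 (positive without JV624), from -0.021 to 0.15 for Axin2 (negative without JV621, from 0 to 2 reads, so nothing is read from its sign) and from -0.040 to 0.81 for Wnt7b (negative without JV602). For Wnt2, Wnt9b and Rspo3, leaving out a mouse leaves 3 against 3, where the exact permutation test cannot reach 0.05. The cause of these changes was not tested. Depth limits Wnt9b, Wnt7b, Lgr5 and Axin2, which had few or no reads in many libraries.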
